A study of Mus musculus with 8 samples.

Results

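GW9662, an inhibitor of the fat cell receptor PPARγ, was added to dexamethasone (DEX), a synthetic glucocorticoid, and the resulting RNA was compared with that of DEX alone in mouse bone marrow adipocyte cultures. The comparison was set by the labels: the 3 libraries labelled GC+GW9662 against the 3 libraries labelled GC, which are 6 of the 8 libraries of the study. All were total RNA of wild-type (WT) mouse bone marrow stem cells, named BMAd as a cell line, that had gone through 14 days of adipogenic differentiation. GC cultures then received 1e-06 M DEX for 24 h, and GC+GW9662 cultures received 1e-06 M DEX plus GW9662 for the same 24 h. The 2 Control libraries shared the differentiation and carried neither agent. The sources used here give no dose of GW9662 and no strain, age or sex of the mice. The labels do not say whether replicates are separate cultures, so a p-value below measures the spread between these libraries, which may be technical. A library of GW9662 without DEX was not analysed here, so the comparison gives GW9662 on top of DEX only.

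PPARγ is a nuclear receptor that binds DNA with RXR partners and switches on the genes of lipid uptake, storage and release that make a fat cell. Glucocorticoids act through another nuclear receptor, the glucocorticoid receptor encoded by Nr3c1, which induces feedback genes such as Fkbp5 and Tsc22d3 and is part of most cocktails that turn marrow stromal cells into adipocytes. GW9662 binds covalently in the ligand pocket of PPARγ and blocks its agonists. Marrow adipocytes share their stromal precursors with osteoblasts, and marrow cultures can also carry macrophages.

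Values are TPM, the reads of a gene corrected for its length and scaled to the same total in every library, so that genes can be compared per length. A difference is the GC+GW9662 mean minus the GC mean of log2(TPM + 1), given with its standard error (SE), so a positive value means a higher level with GW9662 and 1 unit is 2-fold. It understates the change of genes near 0 TPM. A gene passed when its limma p-value, adjusted by Benjamini-Hochberg over 14985 genes, was under 0.05. Only passing genes are said to have risen or fallen, and all adjusted p-values are limma's.

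Depth, estimated from the steps between neighbouring low TPM values, was 21361731 to 31515077 reads in GC and 22174788 to 23502256 reads in GC+GW9662, so that 1 TPM in a gene of 1 kb stood for about 9.97 to 12.4 reads. Correlations of log2(TPM + 1) across genes ran from 0.947 to 0.989 between GC libraries, from 0.968 to 0.983 between GC+GW9662 libraries and from 0.780 to 0.878 between the groups. GC replicate 1 stood apart from the other GC libraries: its median against them was -0.81 (log2) over the longest genes and 0.20 over the shortest. Counts of passing genes without it are therefore given where they differ by over 1.5 times. The 20 most abundant genes took 28.2 to 29.8% of TPM in GC and 20.45 to 21.04% in GC+GW9662. A TPM is a share of the library, so this also moves every other gene, and median-ratio scaling raised the median difference of all genes from -0.11 to 0.01.

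Of the 14985 genes tested, 9253 (61.7%) passed, 4236 higher (28.3%) and 5017 lower (33.5%) with GW9662. At a difference of at least 2-fold 5786 genes (38.6%) passed: 2515 (16.8%) were higher and 3271 (21.8%) lower. The TPM ranges of the groups did not overlap for 9604 genes (64.1%), 4536 higher (30.3%) and 5068 lower (33.8%). Without GC replicate 1, 10801 genes passed (72.1%), 4439 higher (29.6%) and 6362 lower (42.5%). Of the passing genes, 7040 (76.1%) kept their call when each of the 8 libraries was left out in turn. After median-ratio scaling 9371 genes passed (62.5%): 4652 genes (31.0%) were higher and 4719 (31.5%) lower, and 8812 genes passed in the same direction under both scalings. With so many genes passing, a count of members of a gene list is read against 28.3% and 33.5%, and its median against the -0.11 of all genes.

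**Figure D1:**
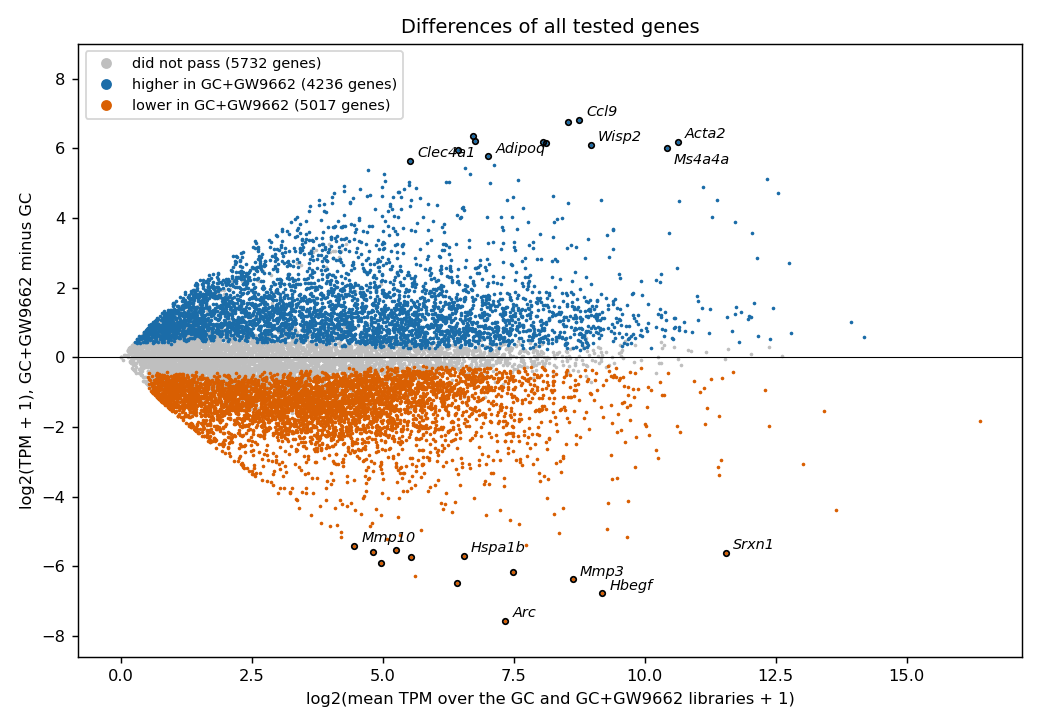
Difference of each of 14985 tested genes (y axis, log2(TPM + 1), GC+GW9662 minus GC) against its mean level (x axis, log2 of the mean TPM over the 6 libraries plus 1), with 4236 genes higher in blue, 5017 lower in orange and the rest in grey. Circles mark the 12 largest rises and 12 largest falls by the naming rule, which run from Ccl9 at 6.83 to Arc at -7.57.

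The targeted receptor was higher, not lower, with its inhibitor. Pparg (chr6:115360951-115490399 in the mouse GRCm38 coordinates of the table) stood at 2.26, 3.38 and 3.19 TPM in GC, at 16.7, 18.5 and 17.5 TPM in GC+GW9662 and at 6.29 and 8.84 TPM in Control. The GC+GW9662 libraries were the highest of all 8, and the difference was 2.25 ± 0.19 (adjusted p = 3.4e-05). GW9662 acts on the receptor protein, so the transcript itself is no check of the treatment. Nr3c1, the glucocorticoid receptor, stood at 6.56, 24.00 and 17.96 TPM in GC and 5.99, 5.62 and 5.62 TPM in GC+GW9662, against 35.8 and 32.3 TPM in Control. GC replicate 1 lay next to the GC+GW9662 libraries and far from the other GC libraries. The difference of -1.18 ± 0.39 passed (adjusted p = 0.029) but was lost in 6 alternatives, among them leaving out GC replicate 2, GC replicate 3 or any of the GC+GW9662 libraries, with adjusted p up to 0.097.

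Fkbp5, which restrains the glucocorticoid receptor and is among its most used readouts, stood at 32.5, 80.3 and 62.8 TPM in GC, 104, 78.8 and 104 TPM in GC+GW9662 and 463 and 429 TPM in Control. The treated groups overlapped, and the difference of 0.78 ± 0.30 did not pass (adjusted p = 0.0501), but did in 6 alternatives, among them median-ratio scaling (adjusted p = 0.0054). Tsc22d3 (GILZ), a glucocorticoid-induced mediator of anti-inflammatory effects, stood at 50.9, 65.4 and 62.7 TPM in GC, 432, 401 and 455 TPM in GC+GW9662 and 572 and 543 TPM in Control. It rose by 2.83 ± 0.12 with no overlap (adjusted p = 8.3e-07). Both readouts were highest in the libraries labelled as carrying no DEX, the opposite of what DEX is known to do to these genes, and the PPARγ targets below were higher with the PPARγ inhibitor. Control, GC and GC+GW9662 throughout mean the libraries labelled so, and every direction rests on those labels.

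**Figure D2:**
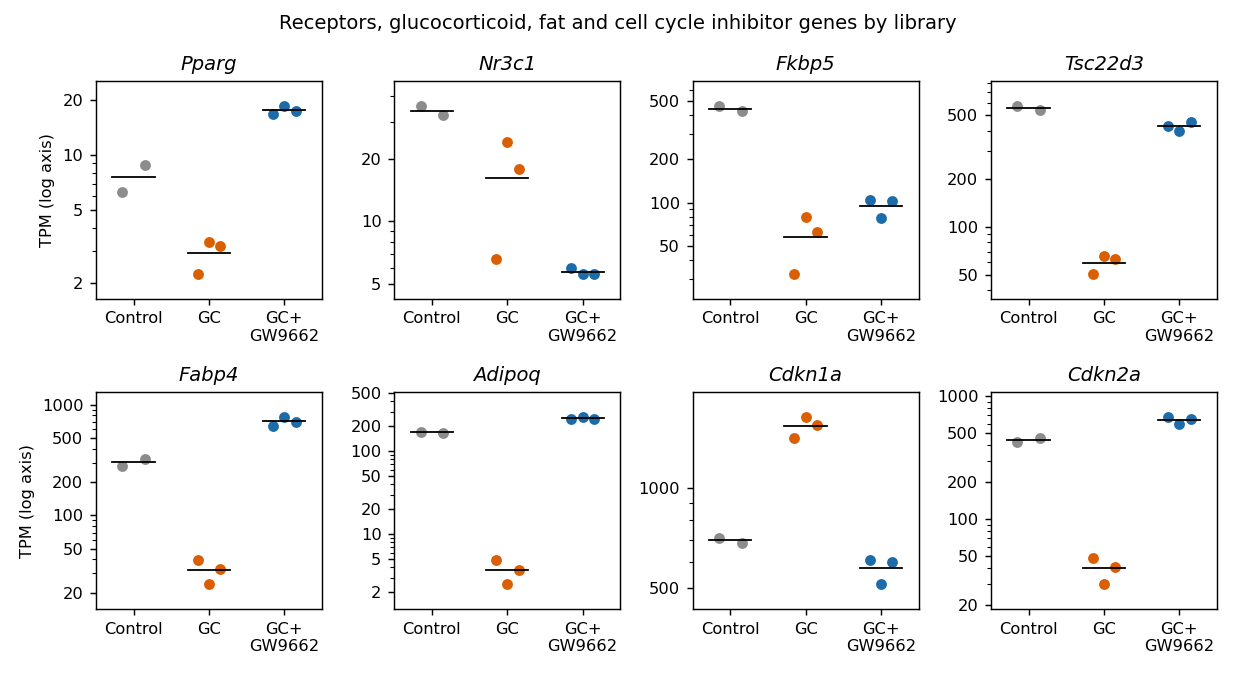
TPM (log axis) of 8 genes in each library of Control (grey, 2 libraries), GC (orange, 3) and GC+GW9662 (blue, 3), with points for libraries and lines for group means. Pparg, Tsc22d3, Fabp4, Adipoq and Cdkn2a were lowest in all GC libraries, Cdkn1a was highest there, and the treated groups overlapped for Fkbp5.

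Adipocyte genes were higher with GW9662. Of 18 tested adipocyte identity genes, 14 rose and 2 fell (1 without GC replicate 2, GC replicate 3, GC+GW9662 replicate 1 or GC+GW9662 replicate 3, and after median-ratio scaling), with a median of 1.63. The fall of the insulin receptor Insr (-1.26 ± 0.33) was kept in every leave-one-out fit. The other gene that fell was Cebpa, by a small difference (-0.28 ± 0.09) that was not kept in every such fit. Adipoq, which encodes the fat cell hormone adiponectin, stood at 4.96, 2.49 and 3.68 TPM in GC and 246, 261 and 248 TPM in GC+GW9662, with 173 and 167 TPM in Control. Its rise was 5.78 ± 0.18 (adjusted p = 3.6e-07). Adig, a small adipocyte protein of the lipid droplet, was almost silent in GC (0.317, 0.392 and 0 TPM) and stood at 42.6, 54.01 and 53.8 TPM with GW9662, a difference of 5.38 ± 0.19. Arxes2, a PPARγ-induced gene of fat cell differentiation, went from 1.21 to 2.29 TPM to 159 to 173 TPM (5.96 ± 0.16), although its close copy Arxes1 may share reads. Cav1, the coat protein of caveolae, rose by 2.96 ± 0.12. In Adipoq, Adig, Arxes2 and Cav1 every GC+GW9662 library lay above every GC library, as in 30.3% of all tested genes. Strong differences were part of how such genes were named, so this is no separate support. The leptin gene Lep was listed at 0 in all 6 libraries. The 23 listed adipocyte markers summed to 416 to 473 TPM in GC and 1038 to 1085 TPM in GC+GW9662. In GC most of that sum was Cebpa, a transcription factor that myeloid cells also use, at 267.97 to 302 TPM, and the adiponectin receptor gene Adipor2, at 69.7 to 104 TPM, while defining adipocyte genes such as Adipoq and Adig were low there. In bulk libraries fewer cells of a type and less RNA per cell cannot be told apart.

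Among 31 tested PPARγ targets of lipid handling, 20 rose and 6 fell, with a median of 1.28. Fabp4, a carrier of fatty acids in the cytosol, stood at 39.9, 23.8 and 32.6 TPM in GC and 647, 777 and 694 TPM with GW9662, above the 280.3 and 321 TPM of Control, and rose by 4.44 ± 0.18 (adjusted p = 8.2e-07). The lipid droplet coat gene Plin1 stood at 0.213, 0.117 and 0.0858 TPM in GC and 22.4, 22.2 and 22.3 TPM in GC+GW9662 (4.36 ± 0.14). Cidec, which fuses lipid droplets, was listed at 0 in 1 GC library and at 0.524 and 0.144 TPM in the others, and stood at 34.6, 38.8 and 34.05 TPM with GW9662 (4.93 ± 0.19). Lpl, the lipase that frees fatty acids from lipoproteins, rose by 3.86 ± 0.14 but remained at 101, 84.8 and 92.6 TPM, below the 641 and 602 TPM of Control. Members that fell included Olr1, a receptor for oxidised lipoprotein, at -3.90 ± 0.50, the glycerol kinase Gk at -1.44 ± 0.22 and the fatty acid transporter Slc27a4 at -0.95 ± 0.15.

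Receptors and partners of PPARγ moved both ways: of 23 tested, 6 rose and 8 fell, and without GC replicate 1 13 fell. After removal of the length trend 10 rose and 8 fell, and the median turned from -0.39 to 0.05. Sirt1, a deacetylase that represses PPARγ, fell by 4.36 ± 0.30 from 74.8, 180.4 and 150.5 TPM to 5.27, 4.57 and 5.86 TPM. Ppard, which encodes the sister receptor PPARδ, fell by 3.02 ± 0.31 from 27.6, 68.6 and 54.02 TPM to 4.21, 6.14 and 4.47 TPM. The partner Rxrb fell by 0.86 ± 0.10, and Nr1h3 (LXRα), itself a PPARγ target, rose by 2.17 ± 0.15. The groups did not overlap for any of these 4 genes, as for 64.1% of all tested genes. The 4 were named by small adjusted p, so this does not describe the list. Of 29 adipogenic transcription factors, 8 rose and 9 fell (14 without GC replicate 1), and 13 rose after removal of the length trend. Cebpb, which acts early in the adipogenic cascade, stood at 204, 362 and 307 TPM in GC and 62.6, 58.2 and 66.3 TPM in GC+GW9662 (-2.17 ± 0.21). Gata2, which holds preadipocytes back, fell by 2.67 ± 0.24, and Klf15, an adipogenic activator, rose by 1.11 ± 0.18.

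Promoters gave few matches to the PPAR element. A RefSeq promoter window, from 250 bases before to 50 after the start (build GRCm38.p6), was matched for 9928 of the tested genes. The DR1 element was searched on both strands as AGGNCANAGGNCA, and 0.232% of the 9928 genes held it. None of the 22 PPARγ targets with a promoter did, which says only that these letters were not in these windows. Ccl6, a macrophage chemokine that rose by 5.03 ± 0.10 (from 3.47 to 3.68 TPM to 142 to 153 TPM), was the only one of 489 genes with a promoter and a rise of at least 4-fold to hold it. Its promoter stretch is shown because it is the sole DR1 match among the strong rises. It lies at chr11:83593123-83593215 on the minus strand, is written 5′ to 3′, and has the match, which begins 88 bases before the start, in capitals.
Ccl6: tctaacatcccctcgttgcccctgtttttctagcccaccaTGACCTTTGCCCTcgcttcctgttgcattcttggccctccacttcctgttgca

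Cholesterol synthesis and mitochondrial respiration genes were higher with GW9662. Of 29 tested genes of cholesterol synthesis and uptake, 22 rose and 4 fell (2 without GC replicate 3), with a median of 1.69. Nsdhl, a late enzyme of sterol synthesis, stood at 14.2, 14.4 and 14.2 TPM in GC and 151, 120.3 and 139 TPM in GC+GW9662 (3.17 ± 0.11). Fdft1 (squalene synthase) rose by 2.82 ± 0.10 and Mvd by 2.88 ± 0.11. Insig1, a sterol-sensing brake on the pathway, went the other way, at -0.94 ± 0.12. Fatty acid and triglyceride synthesis was split, with 10 of 25 genes higher and 8 lower. The elongase Elovl5 (2.51 ± 0.10), the desaturase Scd2 (3.08 ± 0.13) and Agpat2 of triglyceride assembly (3.27 ± 0.16) rose, while Dgat2, which makes the final step to triglyceride, fell by 1.34 ± 0.20.

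Nuclear-encoded respiratory chain genes rose in 70 of 80 cases and fell in 2 (4 without GC replicate 1), with a median of 1.18. Ndufv3 of complex I stood at 58.4, 40.02 and 50.4 TPM in GC and 192, 249 and 227 TPM with GW9662 (2.15 ± 0.16), while Ndufa10 of the same complex fell by 1.12 ± 0.22. The summed level of the list was 16004 to 25441 TPM in GC, with replicate 1 the highest, and 38732 to 44708 TPM in GC+GW9662. Cytosolic ribosomal proteins rose in 61 of 84 and fell in 4 (2 without GC replicate 3 or GC+GW9662 replicate 2), with a median of 0.73, and many have processed pseudogenes that share reads. Mitochondrial ribosomal proteins rose in 30 of 75 and fell in 11 (4 after median-ratio scaling). Fatty acid oxidation genes rose in 17 of 37 and fell in 6, with the β-oxidation enzymes Echs1 (2.84 ± 0.17), Etfb (2.71 ± 0.18) and Hadh (1.89 ± 0.13) among those that rose and catalase Cat (-1.01 ± 0.25) among those that fell. Most respiratory chain and ribosomal genes are short. Short genes as a whole were also higher with GW9662, and after removal of the length trend the medians of these lists were 0.99 for the respiratory chain and 0.63 for cytosolic ribosomal proteins.

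Of the 12 tested protein genes on the mitochondrial genome, 7 rose and 2 fell (0 without GC replicate 3 and 1 without GC+GW9662 replicate 2). The complex I gene mt-Nd1 stood at 1292, 941 and 1032 TPM in GC, 8403, 6711 and 8562 TPM in GC+GW9662 and 11114 and 10811 TPM in Control (2.86 ± 0.15). Mitochondrial genes took 1.44 to 1.49% of TPM in GC and 2.097 to 2.44% in GC+GW9662, with no overlap.

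Glucocorticoid-induced genes did not move as a block: of 34 tested, 16 rose and 11 fell, with a median of 0.20. Beside Tsc22d3, the sulfotransferase Sult1a1 (4.76 ± 0.19) and the anti-inflammatory annexin Anxa1 (3.40 ± 0.15) rose. Anxa1 stood at 75.9, 86.9 and 83.7 TPM in GC and 1058, 698 and 903 TPM in GC+GW9662. Gadd45a, a growth arrest gene that stress also induces, fell by 4.93 ± 0.13, from 1181, 1208 and 1220.2 TPM to 47.1, 33.5 and 36.1 TPM, close to the 40.9 and 43.9 TPM of Control. Of the metallothioneins, which bind zinc and are neighbours on chromosome 8, Mt1 fell by 1.92 ± 0.08 and Mt2 fell by 1.97 ± 0.08. They are related in sequence, so some reads may be split between them. Mt1 stood at 3388, 3799 and 3574 TPM in GC, 913, 954 and 966 TPM in GC+GW9662 and 1068 and 1055 TPM in Control. Of the zinc transporters, the exporter Slc30a1 fell by 2.20 ± 0.19, while the importers Slc39a1 (1.64 ± 0.10) and Slc39a13 (0.85 ± 0.12) rose.

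Mt1 was also 1 of the 2 glucocorticoid-induced genes, of 30 with a promoter, that held the glucocorticoid response element GNACANNNTGTNC, searched on both strands. The other was Sgk1, which rose, and 0.332% of all 9928 genes held the element. The Mt1 stretch is shown because a gene with this element fell while other glucocorticoid-induced genes rose. It lies at chr8:94178955-94179047 on the plus strand (GRCm38.p6), with the match in capitals, beginning 94 bases before the start.
Mt1: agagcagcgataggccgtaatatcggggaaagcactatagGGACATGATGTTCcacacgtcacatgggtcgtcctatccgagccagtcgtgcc

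Of 14 tested genes of the glucocorticoid receptor and its cofactors, 6 fell and 1 rose (2 rose without GC replicate 1). The chaperones that hold the unliganded receptor were among those that fell. Hsp90aa1 stood at 27.3, 151 and 113 TPM in GC, with replicate 1 well under the others, and at 9.62, 9.59 and 5.95 TPM in GC+GW9662 (-3.10 ± 0.56). Hspa8 fell by 1.55 ± 0.23 and the p23 gene Ptges3 fell by 1.14 ± 0.15. The count of rising members was 0 in 10 other alternatives.

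Cell cycle inhibitors split by gene. Cdkn1a, which encodes p21 and is a p53 target, stood at 1419.9, 1641 and 1554 TPM in GC, 606, 513 and 599.8 TPM in GC+GW9662 and 710.0 and 685 TPM in Control, and fell by 1.42 ± 0.10 (adjusted p = 1.3e-05). Cdkn2a, the locus of p16INK4a and p19ARF, went the opposite way, from 48.99, 29.7 and 41.2 TPM to 681, 600.0 and 651 TPM, against 429 and 462 TPM in Control. It rose by 4.003 ± 0.170 (adjusted p = 1.0e-06). Its neighbour Cdkn2b (p15INK4b) rose by 2.86 ± 0.11, from 44.9 to 56.8 TPM to 341 to 390.2 TPM. Both lie on chromosome 4, at chr4:89274471-89294653 and chr4:89306289-89311032. The gene-level TPM does not separate p16INK4a from p19ARF. H2afx, the histone that marks DNA breaks when phosphorylated, fell by 3.40 ± 0.10, and the transcription factor Ets2 fell by 3.16 ± 0.20. Over 22 senescence and cell cycle inhibitor genes, 5 rose and 12 fell (median -0.66).

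Of 32 p53 targets, 8 rose and 17 fell (11 without GC+GW9662 replicate 2), with the death receptor gene Fas at 3.05 ± 0.18 and the antiproliferative Btg1 at -2.50 ± 0.09. Secreted genes of the senescence program were mixed, with 25 of 64 higher and 19 lower, and the sign of their median of 0.14 turned under quantile normalization and when the total left out mitochondrial genes and the 20 most abundant. Igfbp4 (3.25 ± 0.12), Cxcl12 (3.07 ± 0.12) and Angptl4 (3.56 ± 0.17) rose. The protease genes Mmp3 and Mmp10 and the growth factor Hbegf, described below, fell. Cell cycle and DNA replication genes were higher in 18 of 50 and lower in 11 (17 without GC replicate 1). Ccnd1 (cyclin D1) went from 14.3 to 24.6 TPM to 105 to 129 TPM (2.54 ± 0.18), and the replication clamp gene Pcna fell by 1.18 ± 0.09.

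Prostaglandin genes went both ways. Ptgs2 (COX-2), the inducible enzyme that starts prostaglandin synthesis, stood at 24.3, 80.3 and 60.3 TPM in GC and 1.67, 1.25 and 1.44 TPM in GC+GW9662, with 5.72 and 6.44 TPM in Control. It fell by 4.35 ± 0.39 (adjusted p = 4.5e-05). Ptges, which makes prostaglandin E2, fell by 0.93 ± 0.12, and Ptgr1, which reduces and so inactivates such lipids, fell by 1.22 ± 0.14. Hpgd, the dehydrogenase that degrades prostaglandin E2, stood at 2.62, 0.785 and 1.48 TPM in GC and 232, 179 and 214 TPM in GC+GW9662, and rose by 6.37 ± 0.24. Tbxas1 (thromboxane synthase) rose by 3.79 ± 0.14. Of 35 tested members, 17 rose and 10 fell.

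**Figure D3:**
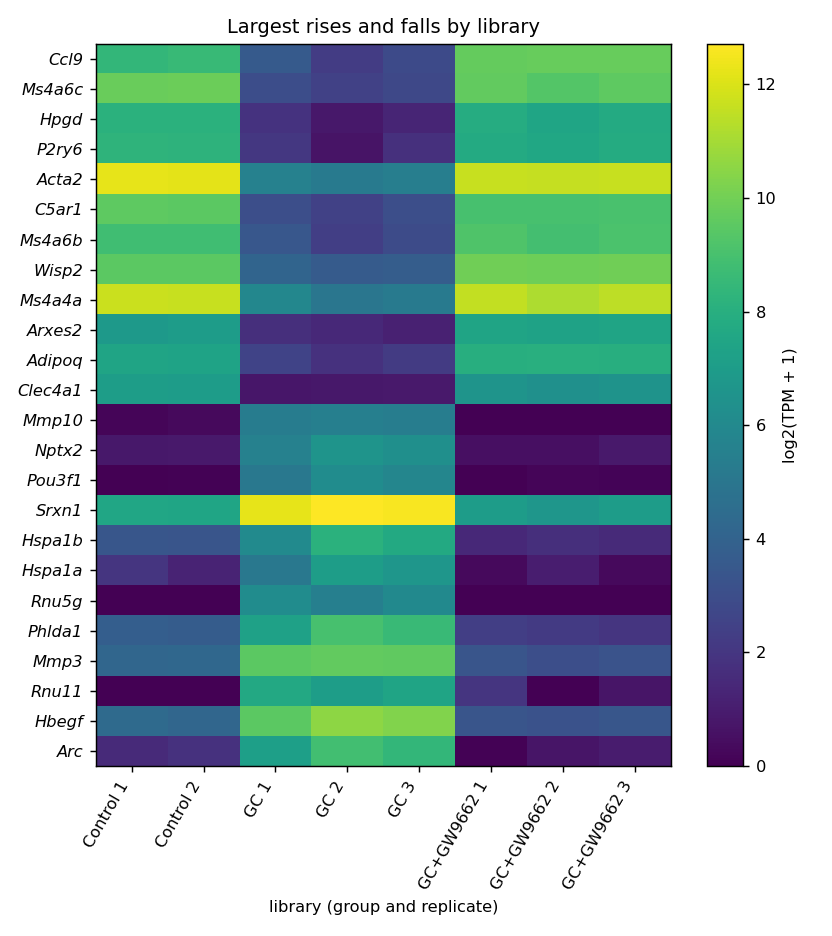
Level of the 12 largest rises and 12 largest falls (rows) in each of the 8 libraries (columns), as log2(TPM + 1) on the colour scale. The 12 rises are low in all 3 GC libraries and the 12 falls high there, which follows from the naming rule, as it asks for groups that do not overlap. The GC+GW9662 columns run close to the Control columns for most rows.

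Stress genes were lower with GW9662. In the integrated stress response and its endoplasmic reticulum (ER) branches, kinases such as PERK slow translation while the factor ATF4 is made and induces amino acid and rescue genes. Of 51 tested members of this list, 37 fell and 8 rose, with a median of -1.11. Atf4 stood at 2114, 1952 and 2060.2 TPM in GC, 334, 314 and 319.9 TPM in GC+GW9662 and 324 and 322 TPM in Control (-2.66 ± 0.08). Chac1, a glutathione-degrading ATF4 target, stood at 537, 498 and 538 TPM in GC and 31.5, 32.5 and 28.2 TPM with GW9662 (-4.05 ± 0.10). Ddit3 (CHOP), the factor that turns ER stress toward death, fell by 3.57 ± 0.13, and the ER cochaperone Dnajb9 fell by 4.12 ± 0.08. The summed level of the list was 17307 to 22019 TPM in GC, 5046 to 5594 TPM in GC+GW9662 and 8882 to 9191 TPM in Control. Members that rose included Nupr1 (1.22 ± 0.13), Ddit4 (0.65 ± 0.08) and the ER chaperone partner Sdf2l1 (1.20 ± 0.16).

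Of 26 amino acid transporter genes, 12 fell and 6 rose. Slc7a11, the cystine importer that feeds glutathione, stood at 209.8, 343 and 308 TPM in GC and 13.6, 10.6 and 13.9 TPM in GC+GW9662 (-4.37 ± 0.19). Its heavy chain partner Slc3a2 fell by 2.94 ± 0.10 and the leucine importer Slc7a5 fell by 2.30 ± 0.08. Slc1a5, a glutamine importer, rose by 1.44 ± 0.11. Aminoacyl-tRNA synthetase genes, which charge tRNAs, fell in 14 of 23 and rose in 3, with Yars at -1.94 ± 0.23 and Rars at -1.68 ± 0.21. Of 43 translation initiation factors, 21 fell, Eif1 (-1.92 ± 0.08) and Eif5 (-3.06 ± 0.31) among them, and 7 rose.

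The ATF4 element TGATGNAA (CARE), searched on both strands, was held by 9 of the 44 stress response genes with a promoter (20.5%) and by 2.76% of all 9928 genes. Of those 9, 7 fell (Asns, Atf3, Chac1, Herpud1, Slc7a11, Trib3 and Vldlr) and 2 rose (Nupr1 and Pycr1), beside 37 of 51 falling and 8 rising in the whole list. Over all genes with a promoter, 3.89% of those at least 4-fold higher and 3.25% of those at least 4-fold lower held it. Stretches of 4 are shown because they hold the same element in genes that moved in opposite directions: Atf3, which fell by 2.41 ± 0.09, Chac1 and Slc7a11, which fell, and Nupr1, which rose. They lie in GRCm38.p6 at chr1:191183396-191183483 (minus strand), chr2:119351009-119351096 (plus), chr3:50443613-50443719 (minus) and chr7:126625533-126625620 (minus). Capitals mark the matches, which in Slc7a11 are on both strands.
Atf3: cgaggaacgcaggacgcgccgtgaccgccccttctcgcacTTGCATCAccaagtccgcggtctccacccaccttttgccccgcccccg
Chac1: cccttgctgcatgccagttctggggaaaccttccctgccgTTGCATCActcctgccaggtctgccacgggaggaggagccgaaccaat
Slc7a11: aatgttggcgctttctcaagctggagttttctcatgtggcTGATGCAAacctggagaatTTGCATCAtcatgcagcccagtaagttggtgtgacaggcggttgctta
Nupr1: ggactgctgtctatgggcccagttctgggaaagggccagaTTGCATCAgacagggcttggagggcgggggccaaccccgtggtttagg

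Antioxidant genes of the Nrf2 program fell in 25 of 39 cases and rose in 7, with a median of -1.33. Hmox1, the heme oxygenase, stood at 23008, 25788 and 25238 TPM in GC, 1226, 1136 and 1191 TPM in GC+GW9662 and 2182 and 2110.5 TPM in Control, and fell by 4.38 ± 0.09 (adjusted p = 4.7e-08). Srxn1, which restores oxidised peroxiredoxins, stood at 4803, 6712 and 6092 TPM in GC and 128, 101 and 128 TPM with GW9662 (-5.61 ± 0.15). Gss, which completes glutathione synthesis, fell by 2.77 ± 0.11. The glutathione peroxidase gene Gpx1 went the other way, from 209, 93.97 and 144 TPM to 3893, 4693 and 4158 TPM (4.90 ± 0.25). Fth1 encodes the heavy chain of ferritin, which stores iron such as heme oxygenase releases, and was the most abundant gene of the GC libraries at 13.3 to 13.5% of TPM and took 3.75 to 3.91% in GC+GW9662. Its difference was -1.82 ± 0.10, with many pseudogenes that may share its reads, and it was 0 under quantile normalization, which gives the top gene of every library the same value. The iron importer Slc11a2 fell by 2.05 ± 0.10 and the exporter Slc40a1 (ferroportin) rose by 2.31 ± 0.20. Of the 31 Nrf2 genes with a promoter, 11 held the antioxidant response element TGACNNNGC (35.5%), against 17.1% of all 9928, and 10 of those 11 fell.

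Heat shock and cochaperone genes fell in 30 of 43 and rose in 5, with a median of -0.96. Hspa1a and Hspa1b encode the same inducible HSP70 protein and share reads, so their split is uncertain. Hspa1b stood at 65.7, 273 and 208 TPM in GC and 1.80, 2.32 and 1.90 TPM in GC+GW9662 (-5.70 ± 0.46), with GC replicate 1 the lowest of its group. Hspa1a fell by 5.72 ± 0.51 and the cochaperone Dnajb1 fell by 2.92 ± 0.10. The heat shock element GAANNTTCNNGAA was held by 5 of 36 promoters of the list (13.9%), against 0.594% of all 9928. Protein turnover genes were lower too: 29 of 46 proteasome genes fell and 6 rose. Psmd4, a ubiquitin receptor of the proteasome, fell by 2.07 ± 0.08, while the interferon-inducible activators Psme1 (2.87 ± 0.12) and Psme2 (2.23 ± 0.13) rose. Of 55 lysosome and autophagy genes, 34 fell and 9 rose. The autophagy receptor Sqstm1 (p62), also an Nrf2 target, stood at 4149, 5625 and 5125 TPM in GC and 525, 419 and 483 TPM in GC+GW9662 (-3.38 ± 0.14). The lysosomal hydrolase genes Hexa (1.38 ± 0.09) and Gusb (1.61 ± 0.14) rose.

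Immediate early genes, which growth factors and stress switch on without new protein synthesis, fell in 28 of 42 and rose in 5, with a median of -1.61. Arc was the largest fall, from 141, 473 and 344 TPM in GC to 0.0634, 0.629 and 0.947 TPM in GC+GW9662 (-7.57 ± 0.43). Hbegf, a ligand of the EGF receptor, stood at 716, 1489 and 1245 TPM in GC, 9.35, 8.18 and 9.60 TPM in GC+GW9662 and 19.9 and 17.6 TPM in Control (-6.78 ± 0.25). Another EGF receptor ligand, Ereg, fell by 3.61 ± 0.27, and the feedback inhibitor Errfi1 fell by 1.85 ± 0.23. Phlda1 fell by 6.15 ± 0.39, Nptx2 fell by 5.52 ± 0.26 and Pou3f1 fell by 5.59 ± 0.28, and all 3 stood under 5 TPM with GW9662. Members that rose were led by Ctgf (3.17 ± 0.10) and Cyr61 (2.59 ± 0.21), matricellular genes that mechanical tension also induces, and Dusp6 (2.14 ± 0.11), a phosphatase that restrains ERK. Ctgf stood at 73.4, 88.97 and 82.01 TPM in GC, 756, 708 and 761 TPM in GC+GW9662 and 2498 and 2409.9 TPM in Control. The AP-1 element TGANTCA, the site of Fos and Jun proteins, was held by 1 of 29 promoters of the list (3.45%), against 6.39% of all 9928.

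Macrophage genes were much higher with GW9662. Of 29 tested macrophage markers, 23 rose and 2 fell (4 under quantile normalization), with a median of 2.26. The complement genes C1qb and C1qc, made by macrophages in most tissues, rose by 3.90 ± 0.09 and 4.49 ± 0.10. C1qc stood at 152, 121 and 135 TPM in GC, 3129.8, 2995 and 3085 TPM in GC+GW9662 and 2935 and 2879.9 TPM in Control. Their list mate Cd68 (-2.15 ± 0.14), a lysosomal glycoprotein, fell from 2226 to 3028 TPM to 516 to 647 TPM. Lyz2 (lysozyme), chosen here after its values were seen, stood at 6139.7, 5954 and 6315 TPM in GC and 7887, 4639 and 6698 TPM in GC+GW9662, with overlap, and did not pass. The summed level of the 30 listed markers was 11696 to 12135 TPM in GC, 34753 to 38991 TPM in GC+GW9662 and 40019 to 40662 TPM in Control, and none of them was at 0 in all 6 libraries. In GC most of that sum was Lyz2 and Cd68. Other markers were low there, such as Mrc1 (1.17 to 5.10 TPM), Mpeg1 (4.67 to 6.06 TPM) and Itgam (0.470 to 0.585 TPM), but not all, with Cd14 at 428 to 496 TPM. Cultures labelled as adipocytes thus held macrophage transcripts in both groups, at very unequal levels between markers in GC. What part of the differences above and below came with macrophage transcripts was not tested.

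Of the 12 largest rises, 3 were Ms4a genes, membrane proteins of myeloid cells that lie side by side on chromosome 19. Ms4a6c (chr19:11469366-11482192) stood at 7.01, 4.57 and 5.73 TPM in GC and 797, 642 and 751 TPM in GC+GW9662, and rose by 6.76 ± 0.15. Ms4a6b (chr19:11516512-11531256) rose by 6.17 ± 0.25 and Ms4a4a (chr19:11375523-11392790) by 6.01 ± 0.21. As close paralogs they may share reads. The chemokine genes Ccl9 and Ccl6, neighbours on chromosome 11, rose by 6.83 ± 0.29 and 5.03 ± 0.10. Ccl9 stood at 11.2, 3.74 and 6.27 TPM in GC, 835, 867 and 853 TPM in GC+GW9662 and 340.4 and 384 TPM in Control. C5ar1, the receptor of the complement fragment C5a, rose by 6.17 ± 0.17, the nucleotide receptor P2ry6 by 6.22 ± 0.32 and the lectin receptor Clec4a1 by 5.65 ± 0.12. Over the lists, 23 of 31 chemokine and receptor genes rose and 3 fell, with Cxcl16 at 3.91 ± 0.14 and Cxcl2, which draws neutrophils, at -1.56 ± 0.24.

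Complement genes rose in 12 of 21 and fell in 3, with C3ar1 at 4.53 ± 0.09. The number that fell was 7 without GC replicate 1 and 1 without either Control library, GC replicate 2, GC replicate 3 or GC+GW9662 replicate 2. Serping1, the C1 inhibitor, fell by 0.75 ± 0.20.

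Interferon-stimulated genes rose in 30 of 44 and fell in 3 (5 without GC replicate 1), with a median of 0.98. Psmb8, an immunoproteasome subunit, stood at 3.57, 2.34 and 2.75 TPM in GC and 88.3, 88.7 and 86.9 TPM in GC+GW9662 (4.53 ± 0.14), and the other immunoproteasome subunits Psmb9 (3.10 ± 0.18) and Psmb10 (3.66 ± 0.17) rose too. Ifitm2 rose by 3.23 ± 0.12 and Ifi27l2a by 4.61 ± 0.22. Isg15, a ubiquitin-like protein and a standard interferon readout, ran against the list, from 297, 346 and 344 TPM in GC to 10.4, 11.98 and 13.9 TPM in GC+GW9662, with 5.12 and 7.80 TPM in Control (-4.66 ± 0.17). NF-kB targets were split, with 11 of 39 higher and 14 lower. Tnf stood at 33.5, 50.3 and 43.6 TPM in GC and 4.61, 3.35 and 5.57 TPM in GC+GW9662 (-2.98 ± 0.21), while the chemokines Ccl2 (1.52 ± 0.12) and Ccl7 (1.93 ± 0.10) and the acute phase gene Saa3 (3.37 ± 0.22) rose. Of 26 antigen presentation genes, 11 rose and 6 fell, and the class I heavy chain gene H2-D1 fell by 1.08 ± 0.12, and its family members share reads.

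Contractile and matrix genes were higher with GW9662. Of 20 contractile genes of smooth muscle type cells and myofibroblasts, 14 rose and 0 fell (1 without GC replicate 1), with a median of 2.25. Acta2, smooth muscle α-actin, stood at 47.7, 36.02 and 42.5 TPM in GC, 3148, 3071 and 3161 TPM in GC+GW9662 and 4869.9 and 4663 TPM in Control, and rose by 6.19 ± 0.11. Actg2 rose by 5.08 ± 0.09 and Myl9, a myosin light chain, by 4.65 ± 0.09. The summed level of the list was 823 to 1074 TPM in GC, 11600.5 to 11992 TPM in GC+GW9662 and 15589.6 to 16045 TPM in Control.

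Of 49 collagen and matrix genes, 24 rose and 3 fell, but without GC replicate 1 14 fell. Wisp2, a secreted protein of mesenchymal and fat precursor cells, stood at 16.1, 11.6 and 12.5 TPM in GC and 991, 971 and 990.3 TPM in GC+GW9662 (6.11 ± 0.12), and Tgfbi rose by 4.04 ± 0.20. The matrix proteases went both ways. Mmp3 (stromelysin), on chromosome 9 beside Mmp10, stood at 722, 819.8 and 793 TPM in GC, 9.25, 7.42 and 8.53 TPM in GC+GW9662 and 17.5 and 18.1 TPM in Control (-6.38 ± 0.11). Mmp10 stood at 40.1, 44.5 and 40.4 TPM in GC and was listed at 0 in all 3 GC+GW9662 libraries, and Mmp12, a macrophage elastase, fell by 2.17 ± 0.18. Mmp23 (2.15 ± 0.14) and Mmp11 (2.51 ± 0.18) rose.

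Growth factor genes moved one by one. Igf1, which marrow stroma and macrophages make, stood at 2.44, 2.44 and 2.13 TPM in GC, 42.99, 35.7 and 40.9 TPM in GC+GW9662 and 78.8 and 80.8 TPM in Control (3.61 ± 0.13), and Igfbp3, which binds it, fell by 1.66 ± 0.24. Bmp2, a bone-forming ligand, stood at 9.91, 36.8 and 29.6 TPM in GC and 0.245, 0.335 and 0.0508 TPM in GC+GW9662 (-4.27 ± 0.43). The BMP target Id3 rose by 3.12 ± 0.13, from 118 to 170.3 TPM to 1163 to 1238 TPM, and the BMP pathway inhibitor Smad6 by 2.51 ± 0.12. Of 46 TGF-β and BMP genes, 16 rose and 16 fell.

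Markers of other marrow lineages differed widely in level. The osteoblast list summed to 2529.9 to 2658 TPM in GC and 4880.3 to 6271 TPM in GC+GW9662, nearly all of it Spp1, and the marrow stroma list to 575 to 1015 and 1460.2 to 1853 TPM, led by Gas6. Of 11 tested osteoblast markers, 9 rose and 0 fell, with Pth1r, the parathyroid hormone receptor, going from 0.823 to 1.54 TPM to 19.2 to 24.6 TPM (3.36 ± 0.19) and the bone matrix gene Ibsp from 0 to 1.09 TPM to 10.04 to 17.9 TPM (3.33 ± 0.30). Spp1 (osteopontin), which macrophages also make, stood at 2512 to 2624 TPM in GC and 4734 to 6123 TPM in GC+GW9662. From the same osteoblast list, the osteocyte genes Sost and Mepe and the osteoblast gene Ifitm5 were listed at 0 in all 6 libraries. Among 18 marrow stroma genes, 9 rose and 2 fell (4 without GC replicate 1). The pericyte receptor gene Pdgfrb rose by 3.17 ± 0.21, and Kitl, the stem cell factor, fell by 2.09 ± 0.39. Osteoclast genes went both ways, with Tnfrsf11a (RANK) at 3.03 ± 0.15 and Itgb3 at -2.92 ± 0.24. The listed erythroid markers summed to at most 2.92 TPM in any of the 6 libraries, with Gata1, Slc4a1 and Hbb-bt at 0 throughout. The B cell gene Ms4a1 was at 0 throughout, and the lymphocyte list summed to 39.6 to 56.6 TPM in GC and 42.9 to 56.5 TPM in GC+GW9662. In the neutrophil list, which summed to 249.8 to 551 TPM in GC and 76.2 to 88.05 TPM in GC+GW9662, S100a8 carried nearly all of the signal, and its usual partner S100a9 stood under 1 TPM in every library. The endothelial list summed to 12.1 to 17.7 TPM in GC and 26.1 to 27.1 TPM in GC+GW9662.

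Clock genes were mostly lower with GW9662. Of 19 circadian genes, 11 fell and 3 rose (5 after removal of the length trend). Dbp, a direct output gene of the clock, stood at 2.72, 3.69 and 2.15 TPM in GC and 28.1, 28.9 and 35.4 TPM in GC+GW9662 (3.06 ± 0.18). Nfil3, which competes with it on DNA, fell by 2.87 ± 0.28, and the repressor Cry1 fell by 2.09 ± 0.16. In glucose use, 14 of 35 genes rose and 11 fell. Ldha, which makes lactate, rose by 2.21 ± 0.13, while the glucose importer Slc2a1 (-1.62 ± 0.10) and the lactate transporter Slc16a1 (-2.96 ± 0.12) fell.

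**Figure D4:**
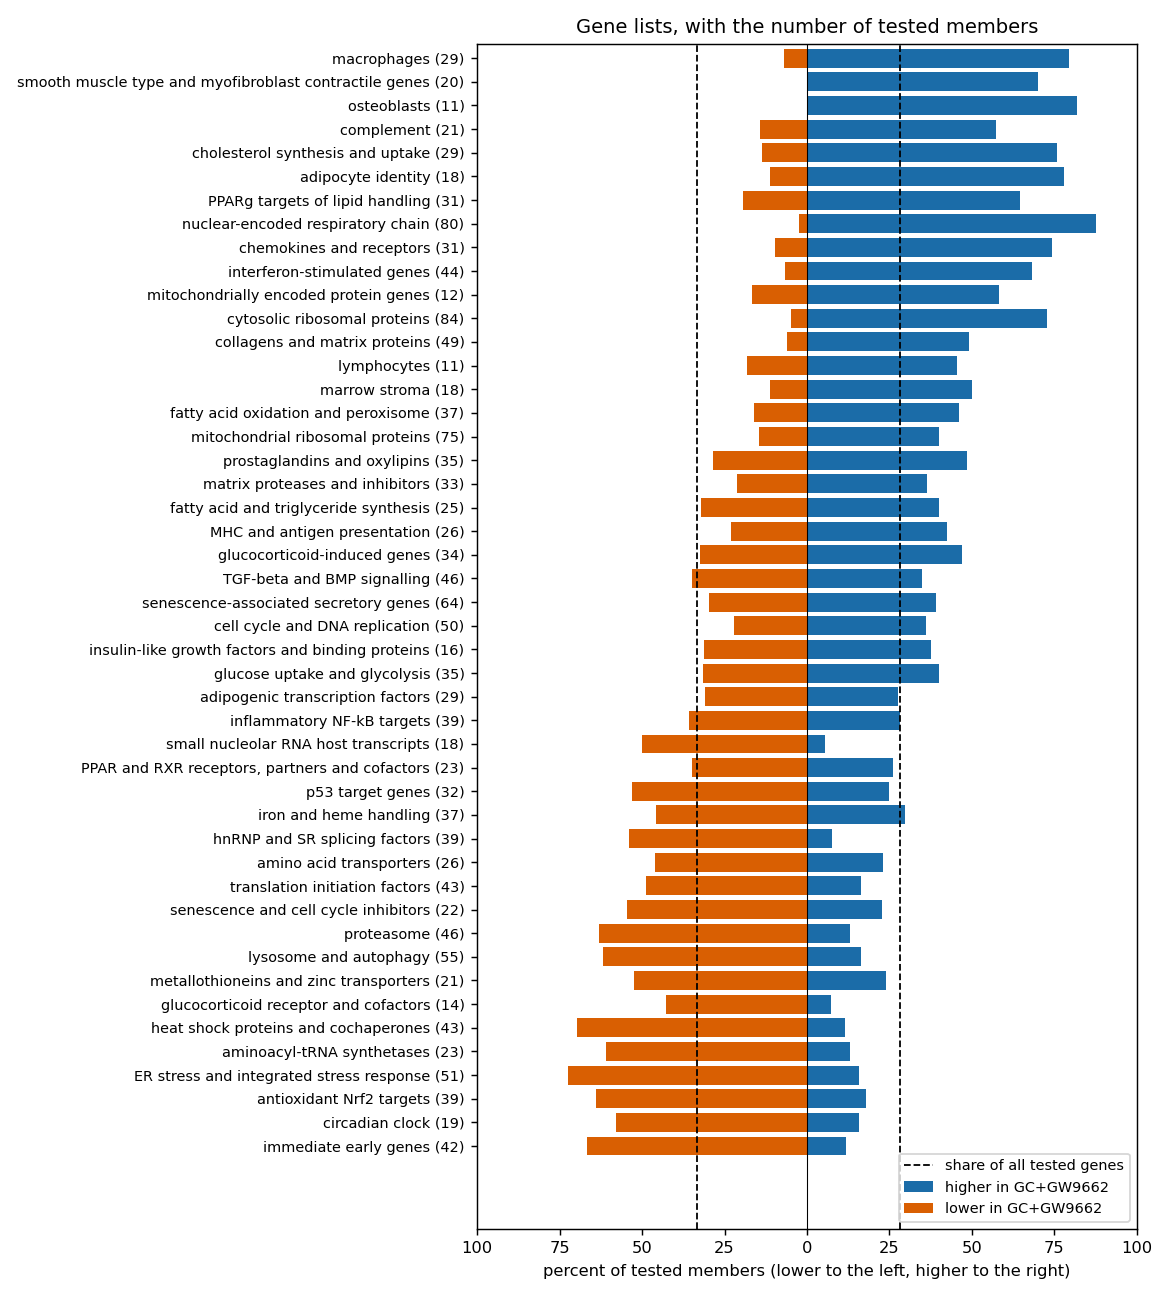
Percent of tested members of each gene list that rose (blue, to the right) or fell (orange, to the left) in GC+GW9662 against GC, for lists with at least 10 tested members, ordered by their median difference. Dashed lines mark the 28.3% of all tested genes that rose and the 33.5% that fell, and macrophage, contractile and osteoblast lists stand at the top and circadian and immediate early genes at the bottom.

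Small RNAs and RNA processing genes were lower with GW9662. The minor spliceosome RNA gene Rnu11 stood at 202, 133 and 169 TPM in GC and 2.89, 0 and 0.674 TPM in GC+GW9662, and was listed at 0 in both Control libraries. Rnu5g stood at 71.6, 44.1 and 65.3 TPM in GC and was listed at 0 in all GC+GW9662 and Control libraries. Such RNAs lack long poly(A) tails and have many copies in the genome, so their reads are uncertain. Over the annotation, 31 of 48 small nuclear RNA genes fell and none rose, and 25 of 62 small nucleolar RNA genes fell and 2 rose. Among genes that host small nucleolar RNAs, 9 of 18 fell and 1 rose (3 without GC replicate 1), with Snhg3 at -2.39 ± 0.20. Splicing factors of the hnRNP and SR families fell in 21 of 39 and rose in 3 (5 after removal of the length trend). Ptbp1, a splicing repressor, fell by 2.18 ± 0.23 and Srsf3 rose by 1.05 ± 0.11.

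The difference also ran with gene length. With 14980 genes in 10 bins of equal number by exon length (GENCODE M21), the median difference was 0.40 in the shortest bin (up to 622 bases) and -0.51 in the longest (9135 bases or more). In the shortest bin 31.4% of genes rose and 18.7% fell. In the longest 13.0% rose and 37.9% fell. GC replicate 1 deviated from its group along the same axis, as given above. After removal of the length trend 9561 genes passed (63.8%): 4759 rose (31.8%) and 4802 fell (32.1%), against 4236 and 5017 without it.

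**Figure D5:**
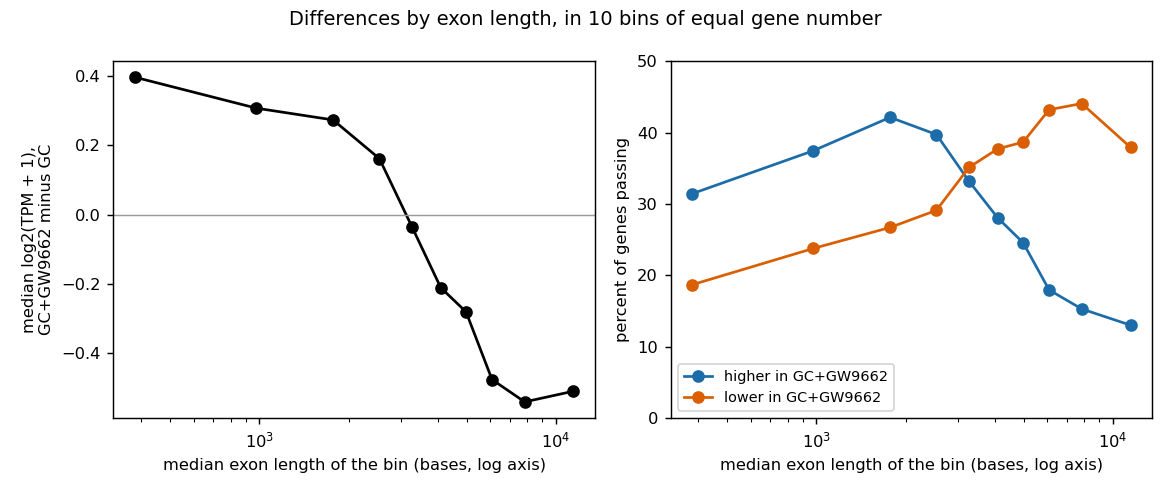
Left, median difference in log2(TPM + 1) between GC+GW9662 and GC against the median exon length of 10 bins of genes (log axis). Right, percent of genes of each bin that rose (blue) or fell (orange), and the median goes from 0.40 in the shortest bin to -0.51 in the longest.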

How the data were processed

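RNA of 8 libraries was measured (Control 2, GC 3, GC+GW9662 3), and the GC+GW9662 libraries were set against the GC libraries. Groups and replicate numbers come from the sample titles. Libraries were made by Smart-Seq2 from total RNA, per the labels' protocols, a method that keeps no strand, so overlapping and antisense genes cannot be told apart. The authors deposited TPM per gene. HISAT2 2.1.0, featureCounts and fastp are named in the submitters' processing notes, per the labels. The genome build and annotation are not given in the sources used here, but 97.6% of genes had the start and end of GENCODE M21 (GRCm38), which supplied exon lengths and gene types. Counts were not used here, so depth was estimated from the step between low TPM values (tolerance 0.02 of a read, met by 70.3 to 72.8% of low genes per library), which bounds counting error only.

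Of 54232 rows, repeated symbols were used once (54134 genes), and the Ensembl ID gave back 27 symbols that stood as dates. A gene was tested where 2 or more of the 8 libraries reached 1 TPM (14985 genes). The scale was log2(TPM + 1), fitted in R 4.3.3 by limma 3.58.1. The model had group means over all 8 libraries and a trended prior, and two-sided p-values were adjusted by Benjamini-Hochberg at 0.05. Control libraries enter for the estimate of spread. In simulated data of 14985 genes for this comparison, 100 genes were changed by 1 log2 unit and 100 by 2, none of them at a low level. Of these, 50% and 86% were recovered, all with the right sign, and 3 unchanged genes were called. The simulated noise was independent between libraries, and far more genes passed in the real comparison, so these rates need not hold there.

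The members, the 55 gene lists and the tests were chosen with earlier results of these data known, so no count of list members is independent support. Named are 8 fixed genes and the 12 strongest passing genes in each direction. Those had to reach a mean of 20 TPM in GC or GC+GW9662, show TPM ranges that do not overlap, keep their call in every leave-one-out fit and carry no clone or predicted-gene name. Each list added up to 3 genes a direction, by smallest adjusted p, with a mean of 5 TPM or more and a call kept in every leave-one-out fit. Lists are described by counts and medians, with no set test. Promoter windows are RefSeq's (GRCm38.p6). Alternatives changed the pseudocount (0.1 or 5), the filter (none, or 5 TPM), the scaling (median-ratio, quantile, or the total taken without mitochondrial genes and the 20 most abundant), the length trend (removed), the prior (constant, or robust), the libraries (the compared groups alone, or each left out in turn) and the replicate block. Tables and plots used Python 3.11.15, numpy 2.4.6, pandas 2.3.3 and matplotlib 3.10.9. No per-library column of the table was left out. Some genes are not reported here.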

Additional observations from a re-analysis of the deposited data

How the results depend on the processing

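The count of passing genes stayed within 1.5 times of 9253 in every alternative run. Leaving out each library gave 7337 to 10801 passing genes, 3505 to 4439 higher and 3832 to 6362 lower, with the highest counts without GC replicate 1 and the lowest without GC replicate 3. Among the scalings, a total taken without mitochondrial genes and the 20 most abundant moved the split furthest, to 3761 higher and 5677 lower, and median-ratio scaling gave 4652 and 4719. At an unadjusted p under 0.05, 10009 genes passed. Of the named genes, Nr3c1 lost its call in 6 alternatives, Hspb8 under quantile normalization (0.22) and with the length trend removed (0.17), Ccl25 with the length trend removed (-0.38), and Rpl36a (-0.48) and Fth1 (0) under quantile normalization. Fkbp5 passed in 6 alternatives. No named gene changed direction. Counts of list members moved by over 1.5 times in 106 list results and less in 2094; the mitochondrial genes count as 0 in the scaling that leaves them out.

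A replicate block by the number in the title gave 8351 passing genes, 3850 higher and 4501 lower, and changed no call of a named gene. Deviations from the group means correlated at -0.10, -0.12 and 0.08 for same-numbered libraries and from -0.10 to 0.14 for the others. Such values, from 3 libraries a group, cannot tell whether a number marks a shared culture or day, and the labels do not say. With 3 libraries a group an exact permutation test of a single gene cannot go below p = 0.10, and no count test was possible on TPM. Low genes rest on few reads.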

Other observations

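Gene types moved unevenly. Of 1523 tested processed pseudogenes, 514 (33.7%) were higher and 196 (12.9%) lower with GW9662, against 28.9% and 35.1% of 12134 protein-coding genes. Processed pseudogenes are mostly short and may take reads from their parent genes. Of 329 antisense genes 51 were higher and 146 lower, of 268 lincRNA genes 54 were higher and 118 lower, and of 108 unconfirmed transcripts (TEC) 11 were higher and 71 lower, types that a strandless library does not separate from overlapping genes. Of 79 microRNA genes, whose reads in such libraries come from longer transcripts, 4 were higher and 28 lower. All 5 mitochondrial tRNA genes that passed, of 7 tested, were higher.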
